A study of Caenorhabditis elegans with 6 samples.

Results

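The mitochondrial respiratory chain and the ATP synthase were followed in *C. elegans* through the genes whose symbols name their subunits and assembly factors. The rule on symbols used no measured value, but the members were chosen with earlier results of these data known. These were the *nuo*, *nduf*, *ndua* to *nduv*, *cox*, *ucr*, *atp* and *asg* genes, the succinate dehydrogenase genes *sdha-1*, *sdhb-1*, *mev-1* and *sdhd-1*, and *gas-1*, *isp-1*, *cyc-1*, *cyc-2.1*, *clk-1* and *lpd-5*. Of 68 such symbols in the annotation, 67 had a probe on the array, out of 24747 genes and unnamed features measured in all. After dim probes and outlier spots were left out, 64 had a value, out of 16060. *cox-16* had no matched probe and was not analysed here.

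RNA came from whole worms of the wild-type strain Bristol N2, all hermaphrodites kept at 20°C on UV-irradiated *Escherichia coli* OP50. Exposure began in both groups with larvae of the last stage, L4, and lasted 24 h. The treated group received pRJ-Fr.5, a fraction of protease-treated royal jelly eluted from a reversed-phase column, and the control group received none. The paper's methods give its concentration as 25 µg/ml and the sample labels as 25 mg/ml, and only this 1 dose was on arrays. Each group had 3 replicates, each a pool of many worms on its own single-color array, and the labels do not say whether replicates were separate cultures, so that p-values measure the spread between these samples.

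The respiratory chain of the inner mitochondrial membrane passes electrons from NADH (complex I) and succinate (complex II) through ubiquinone, complex III and cytochrome c to oxygen at complex IV, and the ATP synthase uses the proton gradient this builds up. In *C. elegans*, partial loss of some subunits, such as ISP-1, NUO-6 or the complex IV subunit COX-5B, lengthens life, whereas mutants of *gas-1* and *mev-1* are short-lived and sensitive to oxygen. Most subunits are nuclear genes, and a small set is encoded by the mitochondrial DNA.

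Values are log2 intensities of a gene on an array minus the 75th percentile of that array, so that they can be compared between arrays for 1 gene but not between genes. Differences are pRJ-Fr.5 minus control on this log2 scale. In whole worms, fewer cells of a type and less RNA per cell cannot be told apart. The labelled whole body was borne out by markers of muscle, neurons, intestine, epidermis and germline, all of which were detected, and 6 of 7 sperm markers were.

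No gene of the respiratory chain or ATP synthase passed the threshold, an adjusted p of 0.05 in limma over all genes, in a comparison in which 29.8% of all genes did and 19.1% did with a lower mean. The count was 0 of 64 with limma and 0 of 64 with the methods' t-test after the same adjustment, by which 21.9% of all genes passed. Each test gave 2 genes with an unadjusted p below 0.05, against 43.9% of all genes with limma. At the level of single probes, 0 of 184 kept probes passed with limma, and 5 had an unadjusted p below 0.05, while 25% of all probes passed. Differences of the 64 genes ran from -0.24 to 0.13, with a median of -0.04, and the median over all genes was 0.03. The mean was lower after pRJ-Fr.5 for 50 of the 64 genes and higher for 14, whereas 45.6% of all genes had a lower mean.

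**Figure D1:**
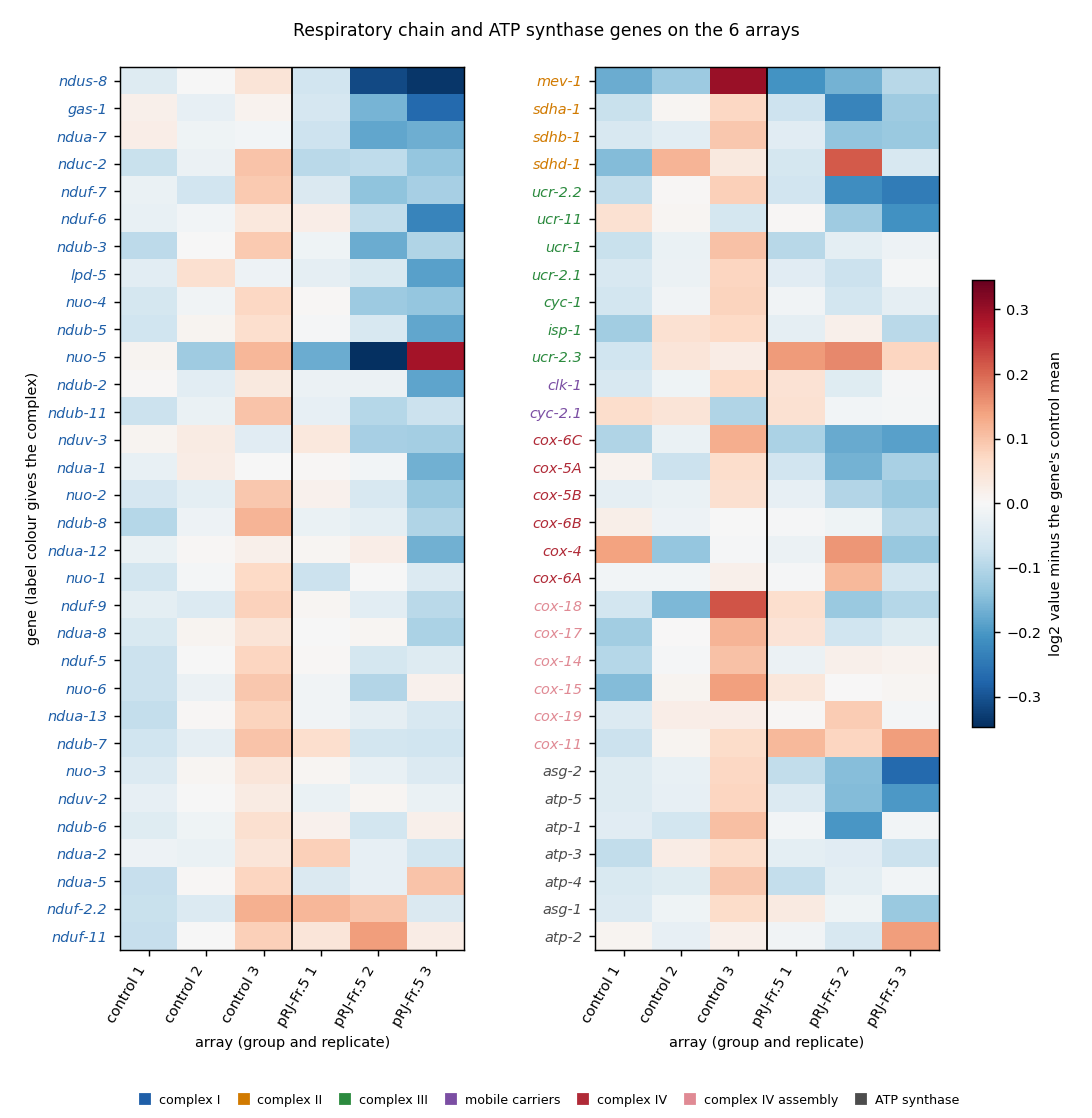
Log2 value of each of the 64 genes (rows, grouped and colored by complex) on each of the 6 arrays (columns), as the difference from the gene's mean over the 3 control arrays. The column of control replicate 3 is red for most genes, and it was the highest of all 6 arrays for 44 of the 64.

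The arrays were precise enough to bound these differences. The 95% interval of the difference lay within 1.5-fold in either direction for all 64 genes with a value and within 1.2-fold for 46 of them. The lowest lower bound was 0.723-fold and the highest upper bound 1.24-fold, both for *nuo-5*. The pooled SD between replicates had a median of 0.071 over the 64 genes and 0.0995 over all genes. Smaller shifts than these intervals were not detectable with 3 arrays in a group.

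**Figure D2:**
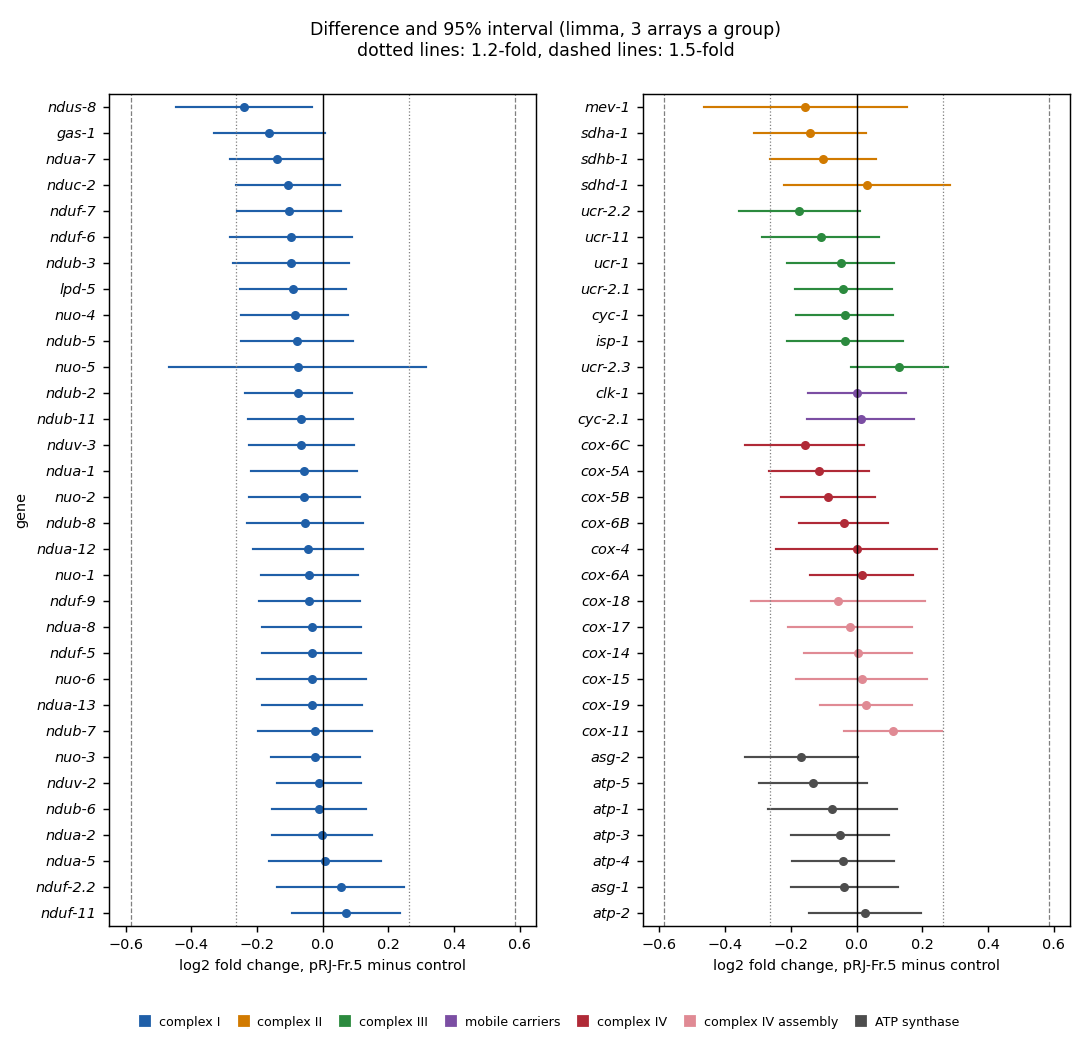
Log2 fold change (horizontal axis, pRJ-Fr.5 minus control) of each of the 64 genes with its 95% interval from limma, 3 arrays in each group, colored by complex. Dotted lines mark 1.2-fold and dashed lines 1.5-fold, and no interval reaches the dashed lines.

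A group of 9 genes had control and pRJ-Fr.5 arrays that did not overlap, 7 of them lower and 2 higher, against 49.7% of all genes, 25.2% lower and 24.6% higher. The lower ones were *ndus-8*, *gas-1*, *ndua-7*, *nduc-2*, *cox-6C*, *asg-2* and *atp-5*, and the higher ones *ucr-2.3* and *cox-11*. Some were barely apart. The lowest control and the highest treated array were at 2.4352 and 2.433 for *atp-5*, and at 3.6172 and 3.6114 for *cox-6C*. The exact permutation test gave the smallest p that 3 arrays against 3 allow, 0.1, for each of the 9. Groups that do not overlap always give this value, so the test adds nothing here. Among them, *gas-1*, *asg-2* and *ucr-2.3* were chosen by the rule for named genes, and the others were named after their values had been seen.

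Complex I takes electrons from NADH. Of 33 genes on the array 32 had a value, and 29 of these had a lower mean and 3 a higher one, with a median of -0.05. The largest difference was that of *ndus-8*, whose product carries iron-sulfur clusters in the arm that conducts electrons. It read 1.12, 1.16 and 1.21 in controls and 1.1, 0.85 and 0.83 after pRJ-Fr.5. Treated replicate 1 lay close to the controls and replicates 2 and 3 stood below them. The difference was -0.24 ± 0.09 (SE, n = 3 in each group), with an adjusted p of 0.0796 in limma. Over the 18 alternatives of processing the adjusted p ranged from 0.0118 to 0.316, and it was below 0.05 in 3 of them.

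The subunit encoded by *gas-1*, the core subunit whose mutant is hypersensitive to volatile anesthetics and to oxygen, read 2.43, 2.39 and 2.43 in controls and 2.36, 2.25 and 2.15 after pRJ-Fr.5. The groups did not overlap, but the difference of -0.16 ± 0.07 (SE) had an adjusted p of 0.125 in limma. Its paralog *nduf-2.2* read 3.77, 3.80 and 3.97 in controls and 3.96, 3.94 and 3.80 with treatment, a difference of 0.05 ± 0.08. The paralogs thus had means on opposite sides of 0, neither of them past the threshold, and the difference between them was not tested. The accessory subunit gene *ndua-7* was at 0.79, 0.75 and 0.75 against 0.69, 0.58 and 0.59, a difference of -0.14 with an adjusted p of 0.114 in limma. *nduc-2*, another accessory subunit gene, read 3.95, 4.01 and 4.12 against 3.93, 3.94 and 3.89, so that its groups were apart by a narrow gap, and differed by -0.11 (-0.26 to 0.05).

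Among genes known for lifespan effects in this complex, *nuo-6* read 4.47, 4.52 and 4.64 in controls and 4.53, 4.44 and 4.56 after pRJ-Fr.5. The groups overlapped and the difference was -0.03, with a 95% interval of -0.20 to 0.13. For *nuo-2*, a core subunit of the peripheral arm, the difference was -0.06 (-0.23 to 0.11), and for *nuo-1*, the subunit that binds NADH and flavin, it was -0.04 (-0.19 to 0.11). *lpd-5*, whose human counterpart is the subunit NDUFS4, differed by -0.09 (-0.25 to 0.07). The intervals of all 4 genes included 0.

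The least precise gene was *nuo-5*, the large iron-sulfur subunit, with 0.69, 0.56 and 0.80 in controls and 0.51, 0.34 and 0.97 after treatment. Treated replicates 2 and 3 were the lowest and the highest of the 6 arrays, and the difference was -0.08 ± 0.16 (SE). The core subunit genes as a list, which are 8 including *nduf-2.2*, had 7 lower means and 0 genes past the threshold with limma, with 1 at an unadjusted p below 0.05, and a median of -0.07. At the other end of the complex stood *nduf-11*, with the highest difference of complex I at 0.07 (-0.09 to 0.24). The 20 complex I genes not described singly here, most of them accessory subunits around the core, lay between -0.10 and 0.0068, and the control and treated arrays overlapped for every one of them.

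Complex II, succinate dehydrogenase, joins the citric acid cycle to the chain. It had a median of -0.12 over 4 genes, 3 of them with a lower mean. The cytochrome b subunit gene *mev-1* read 1.94, 1.98 and 2.41 in controls and 1.90, 1.94 and 2.01 after pRJ-Fr.5. Control replicate 3 alone stood high and the other 5 arrays lay together. The difference was -0.16 ± 0.13 (SE) with all arrays, with an adjusted p of 0.38 in limma, and -0.01 without control replicate 3. *sdha-1*, the flavoprotein subunit that oxidizes succinate, differed by -0.14 (-0.31 to 0.03), and the iron-sulfur subunit gene *sdhb-1* by -0.10 (-0.26 to 0.06). The probes of *sdha-1* lay far apart in level, from 0.44 to -4.53 on control replicate 1. The membrane anchor gene *sdhd-1* differed by 0.03 (-0.22 to 0.29), so that 1 of these 4 genes had its mean on the other side. A further gene, *sdha-2*, lay outside the selection and was counted with the citric acid cycle. It differed by 0.05 (-0.14 to 0.23).

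In complex III, which hands electrons from ubiquinol to cytochrome c, 6 of 7 genes had a lower mean and 1 a higher one, with a median of -0.04. The Rieske iron-sulfur protein gene *isp-1* read 3.42, 3.60 and 3.61 in controls and 3.52, 3.56 and 3.45 with treatment. Its difference was -0.04 (-0.21 to 0.14), and that of *cyc-1*, cytochrome c1, was -0.04 (-0.18 to 0.11). Neither gene showed a shift beyond the spread between replicates.

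The 3 genes for the core 2 type subunit did not run together. *ucr-2.2* read 2.45, 2.53 and 2.61 in controls and 2.47, 2.32 and 2.29 after pRJ-Fr.5, a difference of -0.17 ± 0.08 (SE) with an adjusted p of 0.129 in limma, and 1 treated array lay within the controls. *ucr-2.3* read 1.04, 1.15 and 1.14 against 1.26, 1.27 and 1.18, a difference of 0.13 ± 0.06 (SE) with an adjusted p of 0.152. Every treated array was above every control array for *ucr-2.3*, which had the highest difference of all 64 genes. For *ucr-2.1* the difference was -0.04 (-0.19 to 0.11). The differences between these paralogs were not tested, and whether their probes share sequence was not examined. *ucr-1*, the core 1 subunit, rested on 1 of its 6 probes, the others being not well above background, and differed by -0.05 (-0.21 to 0.11). The remaining gene of the complex, *ucr-11*, differed by -0.11 (-0.29 to 0.07).

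The mobile carriers link the complexes. *clk-1*, the hydroxylase in ubiquinone synthesis whose mutants are long-lived, read 0.80, 0.84 and 0.92 in controls and 0.91, 0.81 and 0.85 after pRJ-Fr.5, a difference of 0.00081 with an interval of -0.15 to 0.15. Cytochrome c, from *cyc-2.1*, was measured by 11 probes and differed by 0.01 (-0.15 to 0.17). In this gene 1 probe read -2.02 on control replicate 3 and between 1.05 and 1.36 on the other 5 arrays. That single reading gave the probe a difference of 0.95, and without control replicate 3 the gene differed by -0.04.

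Complex IV, cytochrome c oxidase, had 6 subunit genes with a value, 4 with a lower mean and 2 with a higher one, and a median of -0.06. *cox-5B*, also known as *cco-1*, read 4.02, 4.03 and 4.11 in controls and 4.03, 3.95 and 3.93 with treatment, a difference of -0.09 (-0.23 to 0.06). *cox-4* read 2.55, 2.27 and 2.40 against 2.39, 2.56 and 2.28, a difference of 0.00049 in which the 2 groups covered the same range. Its 6 probes had differences from -0.22 to 0.24 and so did not share a direction. *cox-6C*, measured by 10 probes, read 3.62, 3.70 and 3.85 against 3.61, 3.55 and 3.53. The difference was -0.16 ± 0.08 (SE), with an adjusted p of 0.154 in limma, and was -0.09 without control replicate 3. *cox-5A* differed by -0.11 (-0.27 to 0.04), *cox-6B* by -0.04 (-0.17 to 0.10) and *cox-6A* by 0.02 (-0.14 to 0.17).

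Factors that assemble complex IV, by placing copper, heme or subunits, had a median of 0.0092 over 6 genes, 4 with a higher mean. *cox-11*, which delivers copper to the catalytic site, read 1.09, 1.18 and 1.23 in controls and 1.28, 1.24 and 1.31 after pRJ-Fr.5. The treated arrays were all above the controls by a small margin, and the difference was 0.11 ± 0.06 (SE) with an adjusted p of 0.211 in limma. The other 5 factors lay between -0.06 and 0.03.

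In the ATP synthase, 6 of 7 genes had a lower mean and 1 a higher one, with a median of -0.05. *atp-2*, the catalytic beta subunit, read 3.89, 3.85 and 3.90 in controls and 3.87, 3.82 and 4.02 after pRJ-Fr.5, a difference of 0.03 (-0.14 to 0.19). *atp-1*, the alpha subunit, differed by -0.07 (-0.27 to 0.12), and *atp-3*, the stalk subunit known as the oligomycin sensitivity conferring protein, by -0.05 (-0.20 to 0.10). The control and treated arrays overlapped for all 3 of these genes.

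Subunit g, in the membrane part of the enzyme, is encoded by a pair of paralogs. *asg-2* read 4.29, 4.31 and 4.41 in controls and 4.25, 4.19 and 4.06 with treatment, a difference of -0.17 ± 0.07 (SE) with an adjusted p of 0.12 in limma. *asg-1* read 4.24, 4.27 and 4.35 against 4.32, 4.27 and 4.16, a difference of -0.04 ± 0.07, and its groups overlapped. *atp-5*, a subunit of the peripheral stalk, read 2.44, 2.45 and 2.55 against 2.43, 2.33 and 2.28, a difference of -0.13 ± 0.07. *atp-4*, a coupling factor subunit of the stalk, differed by -0.04 (-0.20 to 0.11). The difference between *asg-1* and *asg-2* was not tested.

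The filter left out 3 genes, each because of control replicate 3. The spots of *ndub-10* and *cox-7C*, structural subunits of complexes I and IV, were marked as outliers on that array, and the spot of *cox-10*, the heme O synthase, was not well above its background. Without that array *ndub-10* differed by 0.02 ± 0.07 (SE), *cox-7C* by -0.14 ± 0.07 and *cox-10* by -0.11 ± 0.10, with adjusted p of 0.82, 0.177 and 0.455 in limma. Of the 67 genes in that comparison 0 passed the threshold with limma, where 18.2% of all genes did, and 0 had an unadjusted p below 0.05.

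The count of lower means was smaller without control replicate 3. This array was the highest of the 3 controls for 52 of the 64 genes, and pRJ-Fr.5 replicate 3 the lowest of all 6 arrays for 27. On control replicate 3, 27729 probes were well above background, against 32820 to 34549 on the others, and its negative control spots had an SD of 12.97 intensity units, against 2.31 to 4.38. Without this array 42 of 67 genes had a lower mean and the median was -0.0069, where all genes had a median of 0.05. The part of this array's background in the result was not tested.

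The 6 arrays lay on 2 slides, as their file headers show. On slide 1, with 2 arrays of each group, 36 of 64 genes had a lower mean and the median was -0.0032, where all genes had a median of 0.04. On slide 2, with replicate 3 of each group and so no replication, 58 of 64 were lower with a median of -0.16, where all genes had a median of -0.03. Measured from 0, the lean toward lower means was therefore present on slide 2 and near 0 on slide 1. The median of these genes was below that of all genes on both slides. Slide and replicate 3 cannot be told apart.

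**Figure D3:**
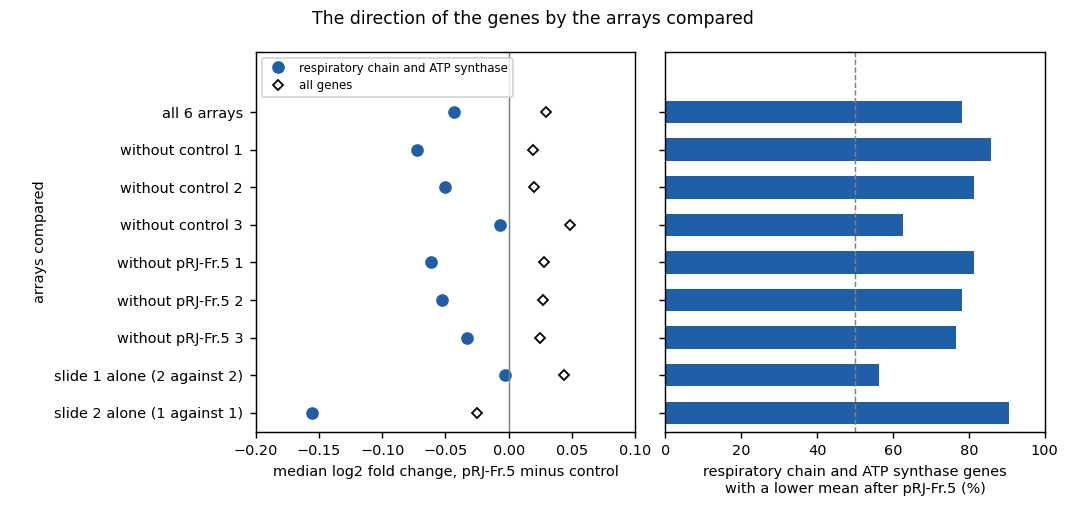
Left, median log2 fold change (pRJ-Fr.5 minus control) of the respiratory chain and ATP synthase genes (circles) and of all genes (diamonds) for all 6 arrays, with each array left out, and within each slide. Right, percent of these genes with a lower mean after pRJ-Fr.5. The median is close to 0 without control replicate 3 and on slide 1 alone (-0.0069 and -0.0032), where all genes have medians of 0.05 and 0.04. It is lowest on slide 2 (-0.16, all genes -0.03).

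Of the 32 genes with more than 1 kept probe, 14 had probes with differences of both signs. In *nduf-7*, another core subunit of complex I, the 5 probes ran from -0.39 to 0.07 around a gene difference of -0.10. The lowest of these probes also varied between arrays, with 1.00, 0.41 and 1.24 in controls and 0.61, 0.39 and 0.51 after pRJ-Fr.5. Probes of 1 gene are not replicates, and the source of the spread between them was not tested.

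Genes that work next to the chain were counted in lists. The mitochondrial ribosome, which translates the subunits encoded by mitochondrial DNA, had 70 genes with a value, 0 past the threshold with limma, 3 at an unadjusted p below 0.05, and a median of 0.003. Ubiquinone synthesis had 7 genes, 0 past the threshold and 2 at an unadjusted p below 0.05, with a median of 0.01. The 5 ATP synthase subunits and inhibitors outside the names above also had 0 past the threshold with limma and 1 at an unadjusted p below 0.05. That one was *asb-2*, a subunit b gene of the peripheral stalk, at -0.20 ± 0.06 (SE), with an adjusted p of 0.0508 in limma that ran from 0.0149 to 0.208 over the alternatives. The mitochondrial superoxide dismutases, *sod-2* and *sod-3*, which remove superoxide made by the chain, had 0 of 2 past the threshold with limma and 0 at an unadjusted p below 0.05. The methods' t-test called 1 gene in the mitochondrial ribosome list and 1 among the ATP synthase subunits and inhibitors, and 0 in the ubiquinone and superoxide dismutase lists. Symbols of the 12 subunits encoded by mitochondrial DNA matched no probe, and 13 features with mitochondrial sequence names, which are not paired with symbols here, differed by -0.17 to 0.28 with 0 past the threshold in limma and 0 at an unadjusted p below 0.05.

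Among the ADP/ATP carriers, which exchange the ATP made in mitochondria for ADP, 2 genes fell. *ant-1.3* read 3.61, 3.62 and 3.74 in controls and 3.08, 2.93 and 2.79 after pRJ-Fr.5, and *ant-1.4* read 3.26, 3.25 and 3.37 against 2.74, 2.49 and 2.55. The groups were far apart for both genes. The differences were -0.72 ± 0.09 (SE) and -0.70 ± 0.08, with adjusted p of 0.00226 and 0.00218 in limma, and both stayed past the threshold under all 18 alternatives (highest adjusted p 0.0245 and 0.0292). *ant-1.1* was at -0.03 (-0.17 to 0.11), and whether probes of these paralogs share sequence was not examined. Of 5 genes in the list with the uncoupling protein *ucp-4*, 4 had a value, 2 of them lower past the threshold, and *ucp-4* differed by 0.16 with an adjusted p of 0.194.

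In the citric acid cycle, 1 of 25 genes with a value rose and 0 fell, with a median of 0.0031. The gene that rose was *icl-1*, the isocitrate lyase and malate synthase of the glyoxylate bypass, which read 2.96, 2.77 and 2.97 in controls and 3.16, 3.45 and 3.57 after pRJ-Fr.5. Its difference was 0.49 ± 0.12 (SE), with an adjusted p of 0.0228 in limma and 0.0792 in the methods' t-test, and it ran from 0.0042 to 0.0827 over the 18 alternatives, 11 of which kept it past the threshold. Besides the methods' t-test, the call was lost on slide 1 alone (0.52, adjusted p 0.0802), with no filter on dim probes (0.60, adjusted p 0.0621), and without control replicate 1 (0.52, adjusted p 0.0592), without control replicate 2 (0.43, adjusted p 0.0785), and without pRJ-Fr.5 replicate 2 (0.47, adjusted p 0.0827) or replicate 3 (0.40, adjusted p 0.0519). *dld-1*, a subunit of the dehydrogenase complexes of the cycle, had a difference of 1.03 ± 0.81 that rested on 1 array, for it read 1.19, 1.2 and -1.94 in controls and 1.23, 1.17 and 1.13 with treatment.

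The mitochondrial stress response, by which worms answer a failing respiratory chain, had 1 of 14 genes higher, 0 lower and a median of -0.0014. The gene past the threshold was *haf-1*, a peptide transporter of the inner membrane, at -0.52, -0.53 and -0.53 in controls and -0.22, -0.22 and -0.25 after pRJ-Fr.5. It rose by 0.30 ± 0.05 (SE), with an adjusted p of 0.00674 in limma, ranging from 0.0058 to 0.0523 over the alternatives. The chaperone genes used as reporters of this response did not pass, with *hsp-6* at -0.17 (adjusted p 0.192) and *hsp-60* at -0.24 (adjusted p 0.0881, and 0.0259 to 0.311 over the alternatives), and neither did *atfs-1*, its transcription factor, at 0.12 (adjusted p 0.268).

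**Figure D4:**
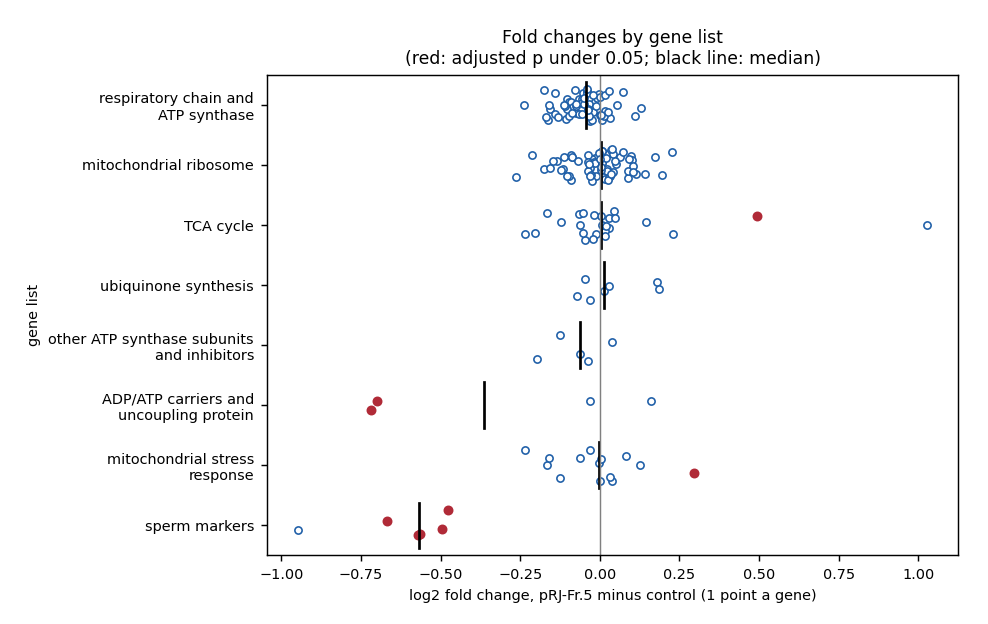
Log2 fold change (horizontal axis, pRJ-Fr.5 minus control) of single genes in 8 lists, with red points for genes at an adjusted p below 0.05 in limma and black lines for list medians. The 64 respiratory chain and ATP synthase genes hold no red point, 2 ADP/ATP carrier genes lie near -0.7, and the open point at 1.03 is *dld-1*.

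Markers of tissues moved unequally between the groups. Among sperm markers, 5 of 6 with a value were lower past the threshold, with a median of -0.57, and their summed level, as log2, was 4.81 to 4.89 in controls and 4.25 to 4.45 after pRJ-Fr.5. Of 6 epidermis markers 1, *rol-6*, was lower past the threshold, with sums of 4.14 to 4.30 against 3.54 to 3.72. In these sums *rol-6* had the highest control mean of the list, 3.32. The epidermis markers did not share a direction, with 4 of 6 means lower. The means of *lin-26* (0.19, adjusted p 0.095 in limma) and *elt-3* (0.09) were higher. Among 8 intestine markers 1 was higher and 2 were lower past the threshold, with sums of 6.51 to 6.62 against 6.51 to 6.53. Over the 18 alternatives *rol-6* passed in 18, whereas the intestine markers *act-5*, *ifb-2* and *vit-6* passed in 8, 5 and 4. Body wall muscle, a tissue rich in mitochondria, had 0 of 8 markers past the threshold with limma and 0 at an unadjusted p below 0.05. The mean was lower for 7 of the 8 and higher for *mlc-2*. The sums, 6.672 to 6.841 against 6.606 to 6.666, were apart only by a very narrow gap. Among all single genes, 49.7% had groups that did not overlap. Pharyngeal muscle had 0 of 4 past the threshold, with sums of 4.82 to 4.89 against 4.74 to 4.82, and 0 at an unadjusted p below 0.05. All 4 of its means were lower. Neurons had 0 of 8, with sums of 4.43 to 4.55 against 4.47 to 4.53, and 1 at an unadjusted p below 0.05. Germline and oocytes had 0 of 8, with sums of 7.15 to 7.37 against 7.19 to 7.28, and 3 at an unadjusted p below 0.05. Those 3, *gld-1*, *oma-1* and *oma-2*, had higher means, and of the 8 only *glh-1* had a lower one. By the methods' t-test 1 neuron marker, 1 germline marker and 0 markers of either muscle passed. The part of these marker differences in the values of *ant-1.3*, *ant-1.4* and the respiratory chain genes was not tested.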

How the data were processed

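The authors deposited, for each of the 6 arrays, the spot intensity from Agilent Feature Extraction 10.7.1.1, background-subtracted within the array and not normalized between arrays, with quality flags. They also deposited a table of values as a linear ratio, which was checked to be the processed signal over the 75th percentile of the array. Here log2 of the processed intensity minus the 75th percentile was used. Control spots and outlier spots were left out. A probe was kept when detected on all 6 arrays, and a gene was the mean of its kept probes. Sequence names were matched to RefSeq symbols (WBcel235) for 80.0% of probes. No coordinates or sequences are given, as the array grid was annotated on another build. The comparison used lmFit and eBayes of limma 3.58.1 under R 4.3.3 with no block term, and Benjamini-Hochberg adjustment ran over 16060 genes. An exact permutation test of 3 against 3 arrays cannot go below 0.1. Intervals are 95%. The number of arrays limits the precision. Replicate numbers were not seen to pair arrays: deviations from group means correlated at -0.24, 0.05 and -0.03 for the same number.

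Alternatives were the methods' t-test, normexp with an offset of 50 on median signals (in place of mean signals), quantile normalization, a median shift, a 75th percentile taken over kept probes, detection in 1 group or no detection filter, values from the series table, blocks for replicate number or slide, slide 1 alone, each array left out, and the highest-signal probe. The test was also run on simulated data with independent noise and known changes larger than any difference of the respiratory chain genes. That run therefore does not bear on changes as small as theirs. The members and lists were chosen with earlier results of these data known. Named genes were those past the threshold, those the selection lists by name, subunits with lifespan effects, paralogs and genes lost to the filter. Other members were named after their values were seen. The 1.8-fold threshold of the methods was not used.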

Additional observations from a re-analysis of the deposited data

How the results depend on the processing

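Under 18 alternatives, 1043 of 1152 values of the 64 genes kept their sign and stayed outside the threshold, 102 changed sign without passing it, and 7 passed it. The number past the threshold, all with lower means, was 2 with quantile normalization (*ndus-8* and *ucr-2.2*), where 29.2% of all genes passed. It was 4 with the percentile taken over kept probes (these and *asg-2* and *cox-6C*), where 29.5% passed. With an array left out it was 0 to 1 (*ndus-8* without pRJ-Fr.5 replicate 1, -0.33, where 34.3% passed). It was 0 with all others, including the replicate block (0 at an unadjusted p below 0.05 in limma, with 19.9% of all genes past the threshold). In these others 10.9% (no filter) to 29.8% (series table) of all genes passed. Genes at an unadjusted p below 0.05 in limma numbered 2 of 64 in the main comparison, where 43.9% of all genes had one. They numbered 13 with the percentile over kept probes, 6 with quantile normalization and 6 without pRJ-Fr.5 replicate 1. The shift to the median left 36 of 64 means lower, with a median of -0.0031, and moved the median of all genes from 0.03 to 0.07. The percentile over kept probes left 59 lower, with a median of -0.07.

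Apart from *cox-4* with the highest-signal probe and *ucr-1* with no filter, values that changed sign stayed within 0.09 of 0. The genes listed here are those described singly, and the counts cover all 64 respiratory chain and ATP synthase genes. The shift to the median turned 14 of the 64, among them *asg-1* (0.0021), *cox-6B* (0.0011), *cyc-1* (0.0044), *isp-1* (0.0050) and *nuo-6* (0.0071), and also *ant-1.1* (0.010). Quantile normalization turned 6, among them *asg-1* (0.014), *clk-1* (-0.042), *cox-4* (-0.036) and *nuo-6* (0.0066), and the percentile over kept probes turned 9, among them *atp-2* (-0.0036), *clk-1* (-0.028), *cox-4* (-0.029), *cox-6A* (-0.014) and *cyc-2.1* (-0.017). On slide 1 alone 21 turned, among them *asg-1* (0.039), *atp-2* (-0.025), *cyc-1* (0.00090), *cyc-2.1* (-0.032), *isp-1* (0.028), *nuo-2* (0.026) and *ucr-1* (0.088), and also *ant-1.1* (0.0033). The highest-signal probe turned 5, *atp-2* (-0.0098), *cox-4* (-0.12), *cox-5A* (0.0046), *cyc-2.1* (-0.038) and *nduf-7* (0.065), normexp turned 6, among them *sdhd-1* (-0.085), and use of all probes turned 1, *ucr-1* (0.13), to which 5 probes near background were added.

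With 1 array left out, the range crossed 0 for 26 of the 64 genes. Of those described singly, they were *asg-1* (-0.072 to 0.0074), *atp-2* (-0.034 to 0.066), *atp-4* (-0.068 to 0.0054), *clk-1* (-0.026 to 0.035), *cox-4* (-0.076 to 0.070), *cox-6A* (-0.033 to 0.055), *cyc-2.1* (-0.041 to 0.042), *nuo-5* (-0.26 to 0.059), *nuo-6* (-0.070 to 0.014), *sdhd-1* (-0.058 to 0.090) and *ucr-1* (-0.087 to 0.0012). The cause was not tested.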
